A study of Mus musculus with 4 samples.

Results

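The genes described here are the matrix metalloproteases (MMPs), the ADAM and ADAMTS proteases and their inhibitors, the TIMPs, in ID8 cells, a mouse ovarian cancer line, with and without knockdown of the deubiquitinase USP9X. They were taken by gene symbol, from the 22063 genes of the expression table, and numbered 79: 23 MMPs, 4 TIMPs, 33 ADAMs and 19 ADAMTS genes. The cells carried either a control shRNA (shCtrl, genotype labelled WT, 2 libraries) or an shRNA against USP9X (shUSP9X, labelled as a USP9X knockdown, 2 libraries), and poly(A)-enriched RNA was sequenced. The study worked on USP9X in TGF-β and hypoxia signalling and in chemoresistance; oxygen, TGF-β treatment and the hairpin used for these libraries are not given in the sources used here. Nothing says that the libraries of a group came from separate cultures, so the p-values measure the spread between these libraries, which may be technical.

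MMPs are zinc-dependent enzymes that cut collagens and other matrix proteins, and several also cut cell-surface and signalling proteins. ADAMs are membrane proteases, many of which release the outer part of membrane proteins (shedding), and ADAMTS enzymes are secreted proteases that process proteoglycans, procollagens and microfibrils. TIMPs bind the active site of these enzymes and block it, each with its own range of targets, and in tumours the balance of protease and inhibitor is a known determinant of matrix turnover.

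Usp9x (chromosome X, 13071498 to 13173328, GRCm38) had 5169 and 4453 counts in the shCtrl libraries against 390 and 346 in the shUSP9X libraries, as the labels have it. Its level fell from 290 ± 11.6 to 20.1 ± 0.569 CPM, counts scaled to library size after TMM (SD, n = 2 per group). The shCtrl libraries held 17232006 and 15611363 counts in total, and the shUSP9X libraries 19978889 and 17021261. The 79 genes held 59826, 54941, 65640 and 56885 of those counts.

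Of the 79 genes, 36 had a count of 0 in all 4 libraries, among them 21 ADAMs, 7 ADAMTS genes, 7 MMPs and Timp4. A count of 0 allows up to 3 counts, or 0.152 to 0.190 CPM depending on the library, so very low expression was not detectable at this depth. A further 15 genes were counted but stayed under the filter on low counts, with at most 12 counts in a library, and 28 were tested. Of the 28, 4 genes (Mmp25, Adam1a, Adamts2 and Adamts6) had fewer than 10 counts in both libraries of 1 group, so they were tested only through the group where they were high and their calls are no support for a change.

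Among the 28 genes tested, 16 were lower and 9 higher in shUSP9X at an adjusted p under 0.05 (edgeR quasi-likelihood test, Benjamini-Hochberg adjustment over all 11448 genes tested). Of all genes tested, 33.6% were lower and 33.8% higher by the same rule, so a change in itself was common in this experiment. By family, 8 of 10 ADAMTS genes and 4 of 6 ADAMs were lower, all 3 TIMPs were higher, and the 9 MMPs split into 4 lower and 4 higher. Where at least 10 counts were asked of every library, which leaves 24 of the 28, 13 were lower and 8 higher: 6 ADAMTS genes, 3 ADAMs and 4 MMPs lower, and 3 TIMPs, 3 MMPs, 1 ADAM and 1 ADAMTS gene higher. Median log2 fold changes over those 24 genes were -0.93 for the ADAMTS genes, -0.43 for the ADAMs, -0.08 for the MMPs and 0.24 for the TIMPs, beside -0.00051 for all genes tested. Over all 28 the MMP median was 0.34, its sign resting on Mmp25, which is at 0 in shCtrl. At the study's own cutoff (more than 1.5-fold at an unadjusted p under 0.05) 13 of the 28 were lower and 6 higher, against 18.7% and 10.8% of all genes tested. Neither group's values overlapped the other's for any of the 28 genes, which also held for 82.3% of all genes tested. These are bulk libraries, in which fewer cells of a type and less RNA per cell cannot be told apart.

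**Figure D1:**
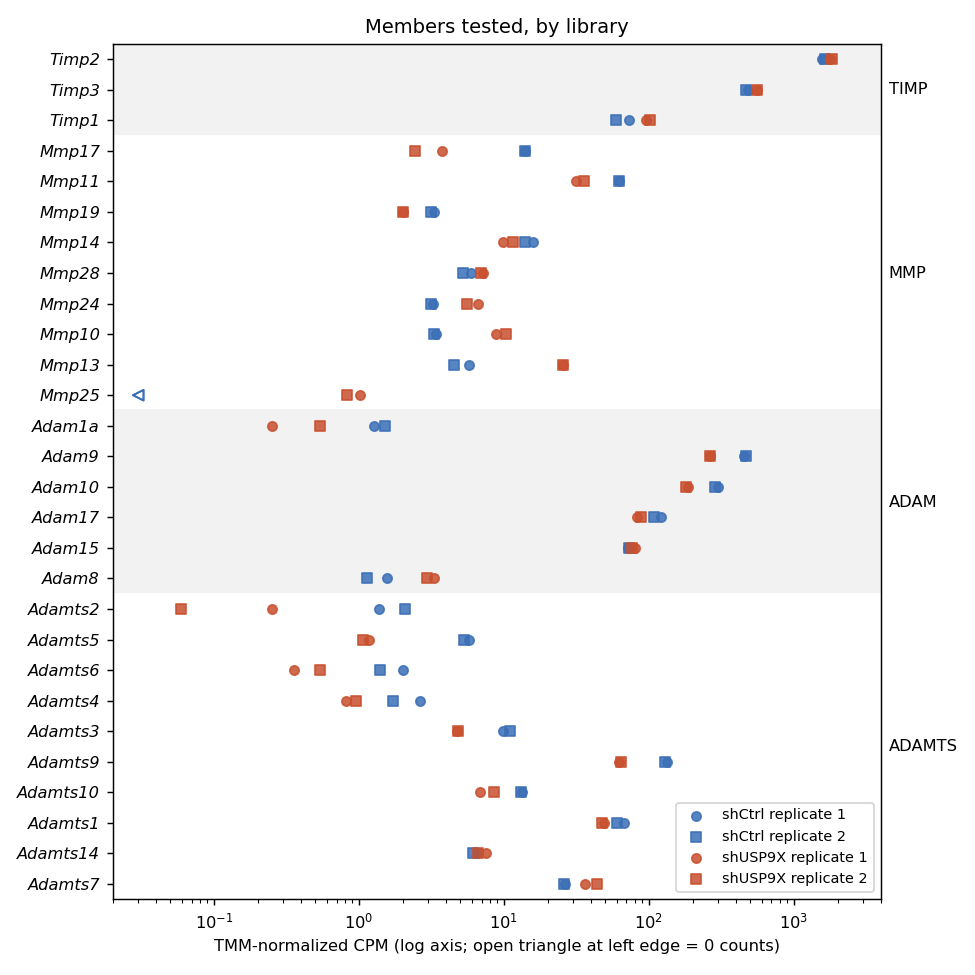
Level of each of the 28 genes tested, in CPM after TMM scaling on a log axis, with 1 point per library (blue shCtrl, red shUSP9X) and families shaded. The ADAMTS points lie mostly with red to the left of blue, the 3 TIMPs with red to the right, and Mmp25 has 0 counts in both shCtrl libraries (open triangle).

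Timp2 was the most abundant member, and all 3 TIMPs that were expressed were higher in shUSP9X. Timp2 (chromosome 11, 118301069 to 118355740), which inhibits most MMPs and also takes part in the activation of Mmp2, had 27141 and 26054 counts in shCtrl against 35245 and 30816 in shUSP9X. That was 1606 ± 58.4 against 1806 ± 32.5 CPM (SD, n = 2 per group), a log2 fold change of 0.17 (SE 0.03, edgeR adjusted p = 2.95e-05). Timp3 (chromosome 10, 86300372 to 86349506), the matrix-bound inhibitor that also blocks several ADAMs and ADAMTS enzymes, had 8339 and 7333 counts in shCtrl against 11036 and 9348 in shUSP9X. Its log2 fold change was 0.24 (SE 0.03, edgeR adjusted p = 1.26e-06). Syn3, on the other strand, shares 21.3% of the exon bases of Timp3, and had 0 and 0 counts in shCtrl against 0 and 3 in shUSP9X. Strand use in the counting is not given. Timp1 (chromosome X, 20870166 to 20874735), a secreted inhibitor that is weak against membrane-type MMPs, showed the largest of the 3 rises. It had 1269 and 938 counts in shCtrl against 1900 and 1723 in shUSP9X, or 66.3 ± 9.80 against 99.2 ± 4.34 CPM, with a log2 fold change of 0.58 (SE 0.07, edgeR adjusted p = 4.28e-08).

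Changes in this experiment went with the base composition of the genes: over the genes tested, Spearman's rho between log2 fold change and GC content was 0.429, all from the same 4 libraries. An alternative fit that removed the trends with GC content and length was therefore read beside each family, and in it 28.2% of all genes were lower and 35.9% higher. Usp9x itself stayed lower there, at a log2 fold change of -2.38 beside -3.85 in the main fit. Of the 3 TIMP calls 2 changed. There Timp3 remained higher (log2 fold change 0.38), Timp1 was 0.16 (edgeR adjusted p = 0.0511, from 3.69e-22 to 0.0511 over all alternatives) and Timp2 turned to -0.08 (edgeR adjusted p = 0.0155, from 9.3e-14 to 0.0167 over all alternatives).

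Levels can be compared between genes on the FPKM scale, which is scaled for transcript length. The summed FPKM of the TIMPs was 677 and 668.1 in the shCtrl libraries and 844.2 and 854.2 in the shUSP9X libraries. The MMPs summed to 46.8 and 46.3 against 38.6 and 42.1, the ADAMs to 235.4 and 234.9 against 153.5 and 151.6, and the ADAMTS genes to 46.0 and 44.9 against 31.1 and 32.9. Summed TIMP level was thus 2.06 and 2.05 times that of all the proteases in shCtrl and 3.78 and 3.77 times in shUSP9X. No groups overlapped in these sums, which were not tested. FPKM is not corrected for GC content, and the sums rest largely on Timp2, Adam9 and Adam10, of which Timp2 turned and Adam10 lost its call in the fit without the GC and length trends. Timp2 was the most abundant in both groups (means of 493.7 and 618.5 FPKM), followed in shCtrl by Adam9 (115.1), Timp3 (101.0), Timp1 (77.9), Adam10 (66.5) and Mmp11 (30.3). In shUSP9X, Timp3 (116.6) and Timp1 (114.0), whose libraries overlap, came before Adam9 (64.4) and Adam10 (40.2). Mmp13 moved from 17th to 10th place in that order, with means of 1.95 FPKM in shCtrl and 9.41 in shUSP9X. In shUSP9X it came between Adamts1 (10.6) and Adamts7 (7.80). Its shCtrl libraries overlapped those of Mmp10 and Mmp28, its neighbours in that group, so the 17th place is not settled.

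**Figure D2:**
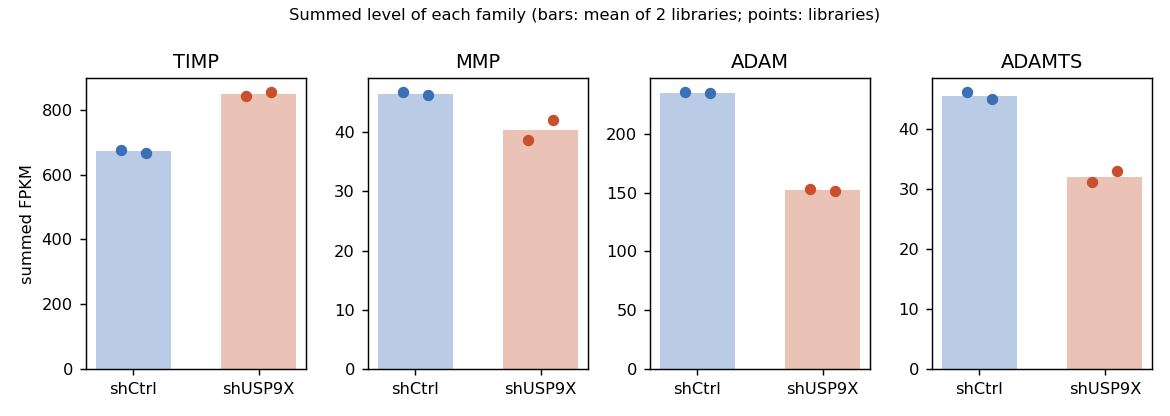
Summed FPKM of the TIMP, MMP, ADAM and ADAMTS genes, each panel on its own axis from 0, with bars for the mean of the 2 libraries of a group and points for the libraries. The TIMP sum is higher in shUSP9X (844.2 and 854.2 against 677 and 668.1) and the sums of the 3 protease families are lower; FPKM is not corrected for GC content.

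The MMPs that rose included the collagenase Mmp13 and the stromelysin Mmp10, whose genes lie in 1 cluster on chromosome 9. That cluster holds 10 MMP genes within 427072 bases (7272514 to 7699585, GRCm38), and 6 of the 10 had 0 counts in every library. The bases before the RefSeq start of 6 of these genes (GRCm38.p6, all on the plus strand) are shown, because 5 of the 6, both counted and silent genes, carry the letters marked in them. Mmp8 is shown as a silent gene without them. They are the 100 bases upstream of Mmp13 (chr9:7272414-7272513), Mmp10 (chr9:7502242-7502341), Mmp3 (chr9:7445722-7445821), Mmp1a (chr9:7464041-7464140), Mmp7 (chr9:7691990-7692089) and Mmp8 (chr9:7558329-7558428), written 5′ to 3′. In capitals are the letters TGANTCA, a pattern that includes the forms AP-1 factors are known to bind, TGACTCA and TGAGTCA:
Mmp13: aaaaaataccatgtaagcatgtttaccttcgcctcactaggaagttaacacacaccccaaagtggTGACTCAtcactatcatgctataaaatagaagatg
Mmp10: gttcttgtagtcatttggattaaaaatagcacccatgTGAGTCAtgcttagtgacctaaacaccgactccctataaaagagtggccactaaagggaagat
Mmp3: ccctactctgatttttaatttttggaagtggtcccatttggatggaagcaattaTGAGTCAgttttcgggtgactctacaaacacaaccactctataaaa
Mmp1a: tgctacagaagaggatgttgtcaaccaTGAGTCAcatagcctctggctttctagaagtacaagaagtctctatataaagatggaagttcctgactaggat
Mmp7: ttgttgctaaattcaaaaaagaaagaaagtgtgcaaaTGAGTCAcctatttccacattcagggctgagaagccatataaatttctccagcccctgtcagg
Mmp8: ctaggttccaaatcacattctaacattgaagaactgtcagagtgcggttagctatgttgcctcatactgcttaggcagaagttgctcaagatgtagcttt

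The first 3 of these genes were counted here, and Mmp1a (a polymorphic pseudogene in the GENCODE annotation), Mmp7 and Mmp8 had 0 counts in every library. TGANTCA reads the same on both strands. It lies 35 to 29 bases before the start of Mmp13, 63 to 57 before Mmp10 and 46 to 40 before Mmp3, but also 73 to 67 before silent Mmp1a and 63 to 57 before silent Mmp7. Within 250 bases before to 50 after a start, 8 of the 10 cluster genes had it, against none of the 8 other MMP genes with an entry in the promoter collection of RefSeq. Of all 27025 genes in that collection, 8.97% had it, and of the 49 members with an entry 24.5%. Mmp20 in the cluster, and Adam20 and Adam25, had it as TGAATCA, and the shares were not divided by form. The motif was the only one searched, and its presence is a description of the sequence.

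Mmp13 (chromosome 9, 7272514 to 7283331), also called collagenase-3, which cuts fibrillar collagens, had 100 and 72 counts in the shCtrl libraries and 501 and 429 in the shUSP9X libraries. The groups stood far apart. It rose from 5.16 ± 0.858 to 25.4 ± 0.0820 CPM (SD, n = 2 per group), which is 4.90-fold, or a log2 fold change of 2.29 (SE 0.14, edgeR adjusted p = 4.52e-14). Mmp10 (chromosome 9, 7502352 to 7510240), stromelysin-2, which cuts proteoglycans and can activate other pro-MMPs, had 59 and 52 counts in shCtrl against 173 and 175 in shUSP9X. It rose from 3.35 ± 0.0804 to 9.57 ± 1.16 CPM, with a log2 fold change of 1.51 (SE 0.19, edgeR adjusted p = 1.25e-07). Both rises stood when the GC and length trends were removed, with a log2 fold change of 2.84 for Mmp13 and a move of less than its SE for Mmp10. Mmp3, stromelysin-1, which lies between them, was under the filter, with 1 and 1 counts in shCtrl against 5 and 6 in shUSP9X. Of the 3 alternatives without that filter, limma on log2(FPKM + 1) called Mmp3 higher (adjusted p = 0.0318), and edgeR (adjusted p = 0.245) and DESeq2 (adjusted p = 0.317) did not. Mmp27 had at most 2 counts in any library.

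**Figure D3:**
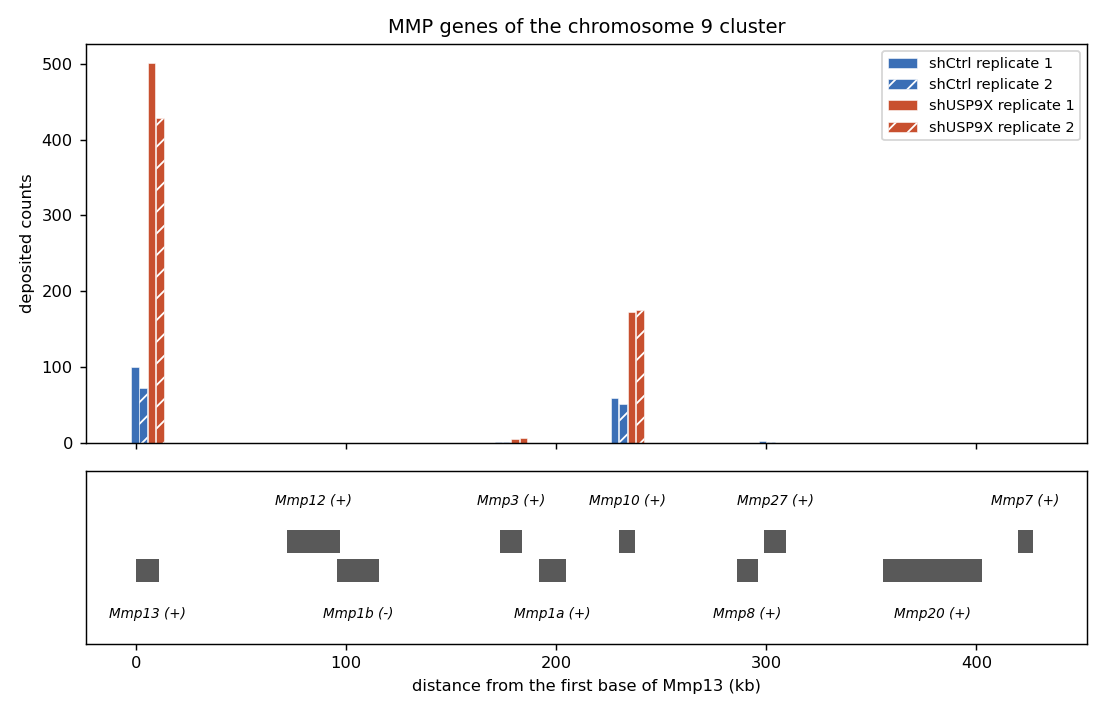
Deposited counts of the 10 MMP genes of the chromosome 9 cluster in each library, drawn at their distance in kb from the first base of Mmp13, above a map of the genes with their strands. Mmp13 (up to 501 counts) and Mmp10 (up to 175) have the tall red bars, Mmp3 and Mmp27 lie near 0, and the other 6 genes have 0 counts.

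The membrane-type MMPs, which stay anchored at the cell surface, split. Mmp17 (chromosome 5, 129584169 to 129611099), a GPI-anchored enzyme, had 242 and 222 counts in shCtrl against 74 and 41 in shUSP9X. Its log2 fold change of -2.16 (SE 0.18, edgeR adjusted p = 6.83e-11) was the largest fall among the MMPs and stayed at -2.14 with GC and length removed. Mmp14 (chromosome 14, 54431612 to 54445364), the collagenolytic enzyme that activates pro-Mmp2, had 274 and 222 counts in shCtrl against 194 in each shUSP9X library. It was called lower in the main fit but not by DESeq2. Its log2 fold change was -0.49 (SE 0.13, edgeR adjusted p = 2.14e-03), or -0.76 without the GC and length trends, and it did not pass without shUSP9X replicate 1 (edgeR adjusted p = 0.0537, from 9.28e-06 to 0.0556 over all alternatives). Mmp24 (chromosome 2, 155775342 to 155818366), best known from the nervous system, rose from 56.2 and 50.3 to 129.8 and 92.8 estimated counts, a log2 fold change of 0.92 (SE 0.22, edgeR adjusted p = 6.15e-04). BC029722 on the other strand shares 13.6% of its exon bases.

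Mmp25 (chromosome 17, 23628311 to 23645277), a GPI-anchored enzyme known from neutrophils, had 0 counts in both shCtrl libraries and 20 and 14 in the shUSP9X libraries. Its mean shUSP9X level was 5.08 times the shCtrl floor of 3 counts per library, without counting error on the shUSP9X side. Mmp25 was tested only through shUSP9X, so its call is no support for a change. Mmp9, a gelatinase that leukocytes also make, was under the filter, with 0 and 0 counts in shCtrl against 9 and 3 in shUSP9X. In the edgeR fit without the filter Mmp9 was called higher (edgeR adjusted p = 0.038), but not by DESeq2 (adjusted p = 0.0741) or limma on log2(FPKM + 1) (adjusted p = 0.0977). Adam8, another protease known from leukocytes, is described with the ADAMs. Leukocyte marker genes moved with these. Of a list of 10, 7 were tested and 6 of those were called higher, beside 33.8% of all genes tested. Of the 6, 5 (Adgre1, Itgam, Ptprc, Csf1r and Laptm5) had at most 1 count in a shCtrl library. They were tested only through shUSP9X, so the tally is no support. The summed level of the list was 10.3 and 9.86 CPM in shCtrl and 26.7 and 26.2 CPM in shUSP9X. Cd14, the most abundant, had 104 and 88 counts in shCtrl against 203 and 166 in shUSP9X. Cd68, the tested marker that was not called, had 74 and 68 against 118 and 85. Its log2 fold change was 0.37 (edgeR adjusted p = 0.125), and -0.01 with GC and length removed. Ptprc (CD45) had 0 and 0 against 29 and 18, Csf1r 0 and 0 against 17 and 13, Itgam 0 and 0 against 72 and 75, and Adgre1 0 and 0 against 58 and 59. C1qa and C1qb were at 0 in all 4 libraries, and Lyz2 at 0 in all but shUSP9X replicate 2, which had 2 counts. Their part in the counts of Mmp25, Mmp9 and Adam8 was not tested.

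Mmp11 (chromosome 10, 75923222 to 75936496), or stromelysin-3, a furin-activated enzyme, was the most abundant MMP and fell. It had 1080 and 982 counts in shCtrl against 618 and 605 in shUSP9X, that is 62.2 ± 0.124 against 33.6 ± 3.28 CPM and a log2 fold change of -0.89 (SE 0.07, edgeR adjusted p = 5.27e-11). The fall was larger with GC and length removed (-1.20). Mmp19 (chromosome 10, 128790910 to 128800824), with 56.9 and 49.8 counts in shCtrl against 40 and 34.2 in shUSP9X, passed by little (log2 fold change -0.67, SE 0.29, edgeR adjusted p = 0.0439). It failed in 10 alternatives, where the edgeR, DESeq2 or limma adjusted p reached 0.239, and leaving out any single library ended its call (edgeR adjusted p from 0.0863 to 0.13). Tmem198b on the other strand shares 22.3% of the exon bases of Mmp19. It had 192.1 and 189.2 counts in shCtrl against 136 and 148.8 in shUSP9X. The part of Tmem198b in the Mmp19 counts was not tested. Mmp28, epilysin, with a log2 fold change of 0.34 (SE 0.18, edgeR adjusted p = 0.106), did not pass.

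The gelatinases, which cut denatured collagen and basement membrane collagen, were hardly expressed. Mmp2 had 6 and 5 counts in shCtrl against 8 and 1 in shUSP9X, and was not called in the 3 alternatives that tested it. Other MMPs under the filter with at least 4 counts in a library were Mmp15 (0 and 4 against 0 and 2), Mmp16 (3 and 6 against 6 and 0) and Mmp23 (7 and 4 against 2 and 1). Mmp23 was called lower by limma on log2(FPKM + 1) without the filter (adjusted p = 0.0356), but not by edgeR (adjusted p = 0.274) or DESeq2 (adjusted p = 0.352).

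Adam9, Adam10 and Adam17, sheddases of the cell surface, were lower in shUSP9X. Adam9 (chromosome 8, 24949611 to 25016927), which sheds growth factor precursors and binds integrins, had 7875 and 7364 counts in shCtrl against 5210 and 4427 in shUSP9X. It fell from 460 ± 8.20 to 263 ± 0.587 CPM (SD, n = 2 per group), a log2 fold change of -0.81 (SE 0.04, edgeR adjusted p = 1.9e-16), and stayed at -0.73 with GC and length removed. Adam10 (chromosome 9, 70678997 to 70780229), the sheddase that cuts Notch receptors on ligand binding, had 5168 and 4507 counts in shCtrl against 3698 and 3028 in shUSP9X. Its log2 fold change was -0.67 (SE 0.04, edgeR adjusted p = 1.36e-13). Adam10 transcripts hold 42.1% GC beside a median of 49.6% for all genes tested, and without the GC and length trends its log2 fold change was -0.04 (edgeR adjusted p = 0.337, from 2.88e-51 to 0.339 over all alternatives). Adam17 (chromosome 12, 21323509 to 21373632), also called TACE, which releases TNF and ligands of the EGF receptor, had 2100 and 1710 counts in shCtrl against 1645 and 1474 in shUSP9X. It had a log2 fold change of -0.43 (SE 0.06, edgeR adjusted p = 2.36e-07), which shrank to -0.17 in the same alternative and still passed.

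Adam15, a sheddase with an integrin-binding motif, had a log2 fold change of 0.11 (SE 0.06, edgeR adjusted p = 0.084) and did not pass. Adam8 (chromosome 7, 139978932 to 139992562) was the ADAM that rose, from 27 and 18 counts in shCtrl to 65 and 50 in shUSP9X (log2 fold change 1.21, SE 0.32, edgeR adjusted p = 1.94e-03). Adam1a (chromosome 5, 121518576 to 121545482), a gene of sperm proteins, was called lower from 21.7 and 23.9 to 4.75 and 8.72 estimated counts (log2 fold change -1.84, SE 0.51, edgeR adjusted p = 2.78e-03). It shares 63.7% of its exon bases with Gm42878 and 24.0% with Mapkapk5 on the same strand. Its counts are also not whole, so that value is uncertain. DESeq2 did not call it lower (adjusted p = 0.0593). It also lost its call without shUSP9X replicate 1 (edgeR adjusted p = 0.0705, from 2.4e-03 to 0.0705 over all alternatives). Of ADAMs under the filter, Adam22 had 9 and 12 counts in shCtrl against 1 and 4 in shUSP9X. Adam11 had 0 and 0 against 4 and 0, Adam21 2 and 4 against 3 and 0, and Adam32 5 and 2 against 0 and 2.

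The ADAMTS genes were the family with the most falls. The 4 proteoglycan-cleaving enzymes tested were all lower, with a median log2 fold change of -1.19. Adamts9 (chromosome 6, 92772699 to 92943492), which cuts versican, had the highest FPKM of the family in shCtrl, though not in shUSP9X, with 2303 and 2040 counts in shCtrl against 1223 and 1078 in shUSP9X. It fell from 131 ± 2.68 to 62.9 ± 1.49 CPM (SD, n = 2 per group), a log2 fold change of -1.06 (SE 0.05, edgeR adjusted p = 1.29e-15). Adamts5 (chromosome 16, 85856173 to 85901828), a main aggrecan-cutting enzyme, had 99 and 84 counts in shCtrl against 23 and 18 in shUSP9X, with a log2 fold change of -2.29 (SE 0.29, edgeR adjusted p = 9.66e-08). With GC and length removed these were -0.78 and -1.39. Adamts4 (chromosome 1, 171250421 to 171260637), the other aggrecanase, had 46 and 27 counts in shCtrl against 16 in each shUSP9X library (log2 fold change -1.32, SE 0.40, edgeR adjusted p = 4.91e-03). Without shCtrl replicate 1 Adamts4 did not pass (edgeR adjusted p = 0.0916, from 1.23e-03 to 0.0916 over all alternatives). Adamts1, which lies beside Adamts5 on chromosome 16 and also cuts versican and aggrecan, had a smaller fall of -0.41 (SE 0.07, edgeR adjusted p = 6.55e-06).

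The procollagen N-proteinases remove the amino-terminal propeptides of fibrillar procollagens. Adamts2 (chromosome 11, 50602084 to 50807573) had 24 and 33 counts in shCtrl against 5 and 1 in shUSP9X, with a log2 fold change of -3.35 (SE 0.60, edgeR adjusted p = 2.24e-05). Its size is uncertain: the log2 fold change was -4.70 without shUSP9X replicate 1 and -2.74 without shUSP9X replicate 2. Adamts3 (chromosome 5, 89677087 to 89883334) had 171 and 175 counts in shCtrl against 94 and 81 in shUSP9X (log2 fold change -1.13, SE 0.17, edgeR adjusted p = 1.81e-06). Adamts14, the remaining enzyme of that group, had a log2 fold change of 0.16 (SE 0.18, edgeR adjusted p = 0.427) and did not pass.

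Of the other ADAMTS genes, Adamts6 and Adamts10 were lower and Adamts7 was higher. Adamts10 (chromosome 17, 33524204 to 33553782), which acts on fibrillin microfibrils, had 232 and 208 counts in shCtrl against 136 and 143 in shUSP9X (log2 fold change -0.79, SE 0.15, edgeR adjusted p = 3.4e-05). Adamts6 (chromosome 13, 104287835 to 104496695), related to Adamts10, had 35 and 22 counts in shCtrl against 7 and 9 in shUSP9X (log2 fold change -1.95, SE 0.48, edgeR adjusted p = 8.01e-04). Without the GC and length trends Adamts6 was at -1.17 (edgeR adjusted p = 0.0385), and with the replicate block added it did not pass (edgeR adjusted p = 0.0575, from 2.52e-04 to 0.0575 over all alternatives). Adamts7 (chromosome 9, 90163069 to 90208071), which cuts cartilage oligomeric matrix protein, had 454 and 413 counts in shCtrl against 717 and 739 in shUSP9X, a log2 fold change of 0.61 (SE 0.09, edgeR adjusted p = 2.2e-06).

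**Figure D4:**
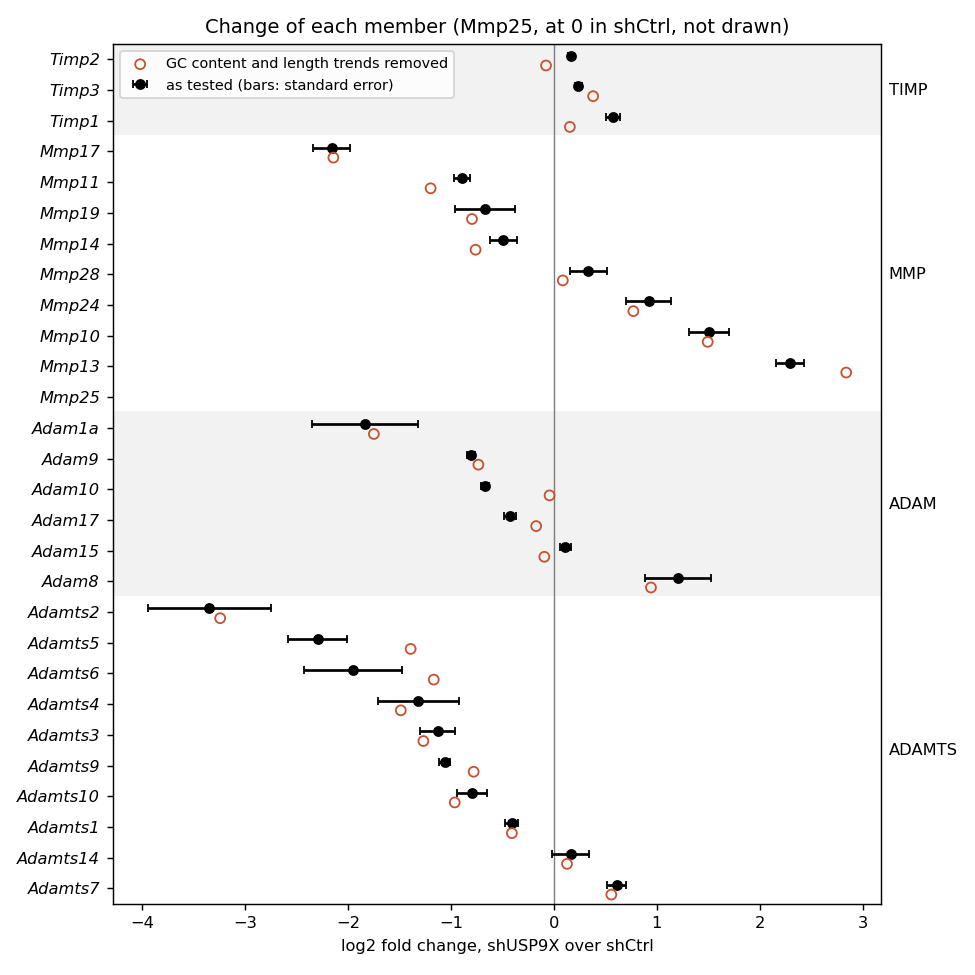
Log2 fold change of each gene tested, shUSP9X over shCtrl, with bars for the standard error (filled) and beside it the value after removal of the trends with GC content and length (open circles). Adam10, Timp1 and Timp2 move to near 0 with the trends removed, while Adamts2, Mmp17 and Mmp10 hardly move. Mmp25 is not drawn because it is at 0 in shCtrl.

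With GC content and length removed, the calls of 25 of the 28 genes stood and 3 changed, those of Adam10, Timp1 and Timp2. By family that fit called 8 ADAMTS genes lower and 1 higher, and 4 MMPs lower and 4 higher. It called 3 ADAMs lower and 1 higher, and 1 TIMP in each direction. The calls of Mmp25, Adam1a, Adamts2 and Adamts6 among these are again no support. Its median log2 fold changes over the 24 genes counted in both groups were -0.87 for the ADAMTS genes, -0.09 for the ADAMs, -0.34 for the MMPs and 0.16 for the TIMPs.

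Genes that work with these enzymes were read from 6 lists, whose counts stand beside 33.8% of all genes tested that were higher and 33.6% that were lower. Among the plasminogen activation genes, which start a proteolytic cascade that can activate pro-MMPs, 8 of 15 were tested, 5 were higher and 2 lower (median log2 fold change 0.27). Without the GC and length trends 3 were higher and 2 lower (median 0.09), Plau and Anxa2 losing their calls. Plaur, the urokinase receptor, had 1090 and 1022 counts in shCtrl against 2800 and 2374 in shUSP9X (log2 fold change 1.15, edgeR adjusted p = 1.38e-16). Serpinb2, an inhibitor of plasminogen activators, had 20 and 7 counts in shCtrl against 73 and 48 in shUSP9X (log2 fold change 2.01, edgeR adjusted p = 5.19e-05), or 2.85 on the log2 scale without those trends. In the list of proprotein convertases and surface activators or inhibitors of MMPs, 8 of 12 were tested, 4 were higher and 1 lower (median 0.30), or 5 and 1 without those trends, though not the same genes: Cav1 turned from lower (-0.13) to higher (0.31), and Bsg, the most abundant, from not called (0.04) to lower (-0.31). None of those called reached a log2 fold change of 1 in size. Reck, not called in the main fit, had 16 and 14 counts in shCtrl against 12 and 1 in shUSP9X (log2 fold change -1.35, edgeR adjusted p = 0.0619). Among the ADAM10 and ADAM17 partners, which control the transport and choice of targets of these sheddases, 10 of 12 were tested, with 6 higher and 1 lower (median 0.24). Here the alternative without the GC and length trends gave 4 in each direction.

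Of 28 proteins known to be shed by ADAMs, 23 were tested, 11 were higher and 7 lower (47.8% and 30.4%, median log2 fold change 0.11), the lower share being near that of all genes. Without the GC and length trends 13 were higher and 6 lower. Kitl, stem cell factor, had 1108 and 993 counts in shCtrl against 332 and 275 in shUSP9X (log2 fold change -1.93, edgeR adjusted p = 3.25e-17). Vcam1, an adhesion receptor of leukocytes, had 159 and 132 against 75 and 47 (log2 fold change -1.40, edgeR adjusted p = 9.8e-07). Without the GC and length trends these falls were smaller, -0.82 for Kitl and -0.55 for Vcam1. Egf had 21 and 16 against 4 and 2 (log2 fold change -2.72), and was tested only through shCtrl. Notch1, a receptor cut by ADAM10, had 3 and 0 counts against 13 and 11, and was tested only through shUSP9X. The ratio of its summed counts, scaled to library size, was 7.24 (exact 95% interval 2.2 to 37.6, counting error only). Its log2 fold change was 2.77, and 1.88 without shCtrl replicate 2. The Notch1 call, lost with DESeq2 (adjusted p = 0.0885) and with limma on log2(FPKM + 1) without the filter (adjusted p = 0.132), is no support for a change. Cx3cl1, a membrane-bound chemokine outside the rule for naming, chosen after its values were seen, had 115 and 98 counts against 271 and 233 (log2 fold change 1.10, edgeR adjusted p = 2.55e-07). The 8 ligands of the EGF and neuregulin family on that list, picked out after their values were seen, held 4 called higher and 2 called lower among the 7 tested. The lower ones were Egf and Nrg1, and Nrg1 (-0.44) was at 0.19 and not called without the GC and length trends. Areg had 401 and 309 counts in shCtrl against 835 and 717 in shUSP9X, with a log2 fold change of 0.99. Hbegf (0.94), Btc (0.63) and Ereg (0.46) were also higher, and Tgfa did not pass (-0.05). Their order depended on the GC and length trends, without which Btc was at 1.80 and Ereg at 1.45, above Areg (0.76) and Hbegf (0.74).

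Of 20 genes for matrix proteins that MMPs and ADAMTS enzymes cut, 10 were tested, and 9 of these had lower RNA levels and 0 higher (median log2 fold change -0.45), some by little, as Sparc (-0.08) and Bgn (-0.08). Fn1, fibronectin, had 26826 and 25023 counts in shCtrl against 10291 and 9253 in shUSP9X (log2 fold change -1.55, edgeR adjusted p = 2.76e-23). Tnc, tenascin C, had 81 and 78 against 16 and 19 (log2 fold change -2.31, edgeR adjusted p = 3.75e-07). Vcan, versican, the substrate of Adamts1, Adamts5 and Adamts9, had 122 and 104 against 59 and 55 (log2 fold change -1.13, edgeR adjusted p = 4.31e-05), but -0.15 with GC and length removed. In that alternative the list held 6 lower and 1 higher, Dcn. Of the ADAMTS-like proteins and other extracellular metalloproteases, 11 of 23 were tested, 5 were lower and 2 higher (median -0.36), or 3 lower and 2 higher among the 9 counted in both groups (median 0.09). Removal of the GC and length trends left 5 lower and 1 higher (median -0.10), and Pcolce, the most abundant, turned from 0.17 to -0.10. Pappa, which cuts IGF-binding proteins, had 45 and 33 counts in shCtrl against 3 and 5 in shUSP9X (log2 fold change -3.38, or -2.71 without the GC and length trends). Papln, papilin, had 13 and 26 against 4 and 6 (log2 fold change -2.08), and did not pass without shCtrl replicate 2 (edgeR adjusted p = 0.0843, the highest over all alternatives). Both were tested only through shCtrl, so their calls are no support for a change. Mme, neprilysin, had 418 and 335 against 150 and 147 (log2 fold change -1.48, edgeR adjusted p = 1e-10), and 0.03 with GC and length removed.

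**Figure D5:**
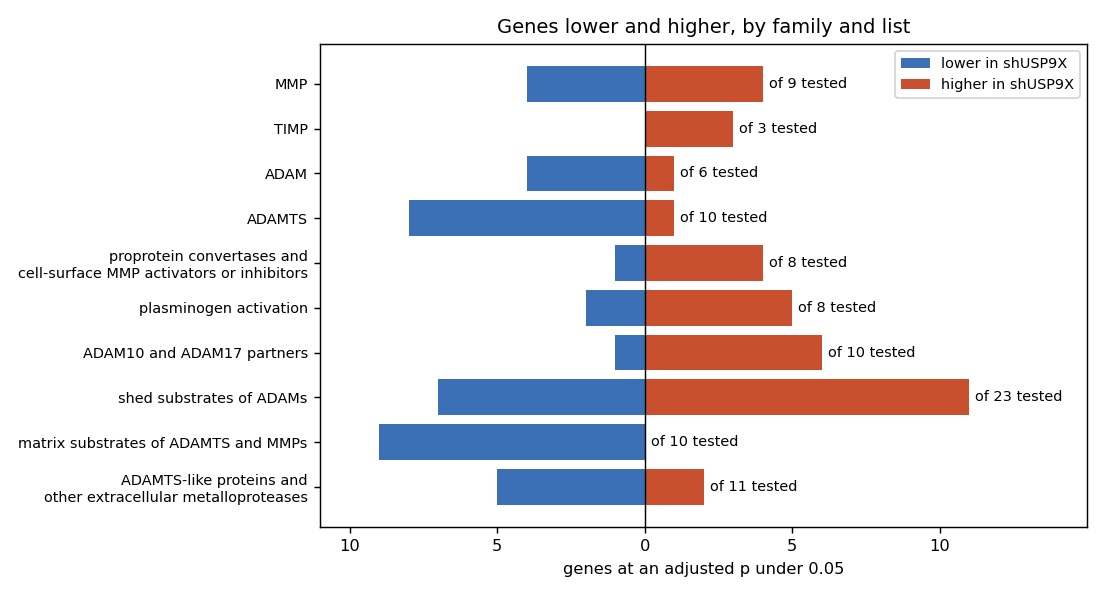
Number of genes lower (blue, to the left) and higher (red, to the right) in shUSP9X at an adjusted p under 0.05, for the 4 families and the 6 lists of related genes, with the number tested. The ADAMTS genes (8 lower, 1 higher) and the matrix substrates (9 lower, 0 higher) extend to the left. Of the 8, Adamts2 and Adamts6 were tested only through shCtrl and are no support. The plasminogen activation genes (2 lower, 5 higher, or 2 and 3 without the GC and length trends) extend to the right.

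Fibroblasts express many ADAMTS and matrix genes, and fibroblast markers were read beside them. Counts of markers stand beside 33.6% of all genes tested that were lower and 33.8% that were higher. Of 8 fibroblast markers 4 were tested and 3 were lower, too few to read against those shares. The summed level of the list was 254.1 and 260.9 CPM in shCtrl and 149.2 and 147.3 CPM in shUSP9X. Dcn, which is also on the matrix list, was the most abundant. Without the GC and length trends 2 were lower and 1 higher, Dcn turning from a log2 fold change of -0.46 to 0.83. Pdgfra had 272 and 215 counts in shCtrl against 34 and 39 in shUSP9X, and Col1a1 1174 and 1245 against 452 and 362. Col3a1 was not called, and Pdgfrb, Thy1 and Lum were at 0 in all 4 libraries. Their part in the ADAMTS and matrix values was not tested. Of 6 endothelial markers 2 were tested and 1 was lower, and Cdh5, Emcn and Kdr were at 0 in all libraries. The ovarian surface and mesothelial markers that fit the origin of ID8 cells held 8 tested of 10. Of these, 3 were lower and 3 higher (37.5% each), near the shares of all genes. Their summed levels were 2411, 2438, 2769 and 2718 CPM (shCtrl first), with Krt19 the most abundant. Without the GC and length trends 5 of them were lower and 2 higher. Krt7 had at most 3 counts in a library and Muc16, among the lower markers, had 33 and 43 counts in shCtrl against 1 and 0 in shUSP9X and was tested only through shCtrl.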

How the data were processed

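RNA from 4 libraries of ID8 cells (2 shCtrl, 2 shUSP9X, grouped by their labels) was analysed from a table that the authors deposited with estimated counts per gene, not normalized, and with FPKM values, which the authors had scaled for length and library size. The submitters' processing notes name fastp 0.18.0, Bowtie2 2.2.8, HISAT2, StringTie 1.3.1 and RSEM; the paper's methods name the genome GRCm38 and DESeq2. The test had been planned for whole counts, so the estimated counts were rounded, filtered with filterByExpr and normalized by TMM. They were tested over 11448 genes by edgeR 4.0.16 (quasi-likelihood, 2-sided, R 4.3.3) with Benjamini-Hochberg adjustment at 0.05 and no replicate block. Levels per library are deposited counts or TMM-scaled CPM. Alternatives used DESeq2 1.42.0, limma 3.58.1 on log2(FPKM + pseudocount) with pseudocounts of 1 and 0.1, other normalizations, no filter or at least 10 counts in every library, a loess offset (span 0.3) for GC content and length, and fits without each library. Coordinates, overlaps and GC content are from GENCODE M21, promoters from RefSeq GRCm38.p6, which held 49 of the 79 genes. The fit was tested on simulated data.

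Genes were chosen by symbol, and 1 gene is not reported here. Members and lists were chosen with earlier results of these data known. Every gene that passed the filter is named. The value in every library is given for an adjusted p under 0.05 with a change above 1.5-fold, for the most abundant of each family, for Mmp2, Mmp9, Mmp14, Adam10, Adam17 and the TIMPs; members under the filter are named from 4 counts in a library. Of the related lists, genes with an absolute log2 fold change of at least 1 are named, at most 4 a list. Other genes were named after their values were seen. Molecular identifiers are not described, so floors cover counting error only.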

Additional observations from a re-analysis of the deposited data

How the results depend on the processing

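Over all alternatives, 19 of the 28 genes tested kept their call and direction, and 405 of 430 values did so. The exceptions that turned were Timp2 (log2 fold change -0.0755 with the GC content and length offset and -0.0755 with that offset plus the replicate block) and Adam15 (-0.0921 and -0.0927, not called). With the offset the TIMPs had 1 lower and 1 higher, and with offset and block 1 lower and 2 higher, Timp1 (edgeR adjusted p = 0.03) passing again. Without the filter on low counts, edgeR and limma each called 5 MMPs higher, Mmp9 being the addition for edgeR and Mmp3 for limma. Calls lost elsewhere were those of Adam10 and Timp1 (offset), Adamts6 (offset with block, edgeR adjusted p = 0.0575), Adam1a, Adamts4, Mmp14 and Mmp19.

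DESeq2 called 12 members lower, against 16 in the main fit. They were 2 MMPs (against 4), 3 ADAMs (against 4) and 7 ADAMTS genes (against 8). Adam1a, Mmp14 and Mmp19 were among the calls lost. Upper-quartile normalization called 2 ADAMs higher, Adam15 (edgeR adjusted p = 0.0277) being the addition. In the limma fits of log2(FPKM + 1) and log2(FPKM + 0.1) with a mean of at least 1, which tested fewer genes, 10 members and 4 ADAMTS genes were lower and 0 ADAMs higher. Leaving out each library in turn gave 2 to 3 MMPs lower, 2 of them without shUSP9X replicate 1, and 13 to 15 members lower with 9 higher. Deviations of same-numbered libraries from their group means had a correlation of -0.0453. With 2 libraries per group that value cannot show whether they were prepared together, and the labels do not say. With the replicate block 15 members were lower and 9 higher, Mmp19 losing its call. With 2 libraries per group, genes with few counts are the least certain. Every fit without a library leaves 1 library in that group, so the spread between replicates comes from the other group.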
